A study of Mus musculus with 8 samples.

Results

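The genes described here encode the potassium channels and their auxiliary subunits, chosen by name: every gene on the array whose name begins with Kcn and a letter of a channel family, less 3 names that are not analysed here. The rule gave 92 genes. Of these, 73 were measured, meaning that 4 or more of the 8 arrays had a probe well above background, among 23606 genes and unnamed probes tested in all. The measured genes are those that passed this filter and do not stand for all 92. Hippocampal total RNA from C57BL6/J female mice aged 8 weeks was read on one-colour Agilent arrays. All mice had lived for 4 weeks in an enriched environment, housing with added objects and space, so no array represents standard housing. One group received anti-CD4 antibodies, directed at the surface protein of helper T lymphocytes, and the other control antibodies, with 4 arrays in each group. The comparison asks whether hippocampal transcription differs once CD4-positive T cells are depleted. The labels do not state whether separate animals were used, and p-values therefore reflect only how these 8 samples scatter, which can be technical.

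Potassium channels let potassium leave or enter a cell along its gradient, and so set the resting potential of neurons and end their action potentials. Voltage-gated families (Kv) open on depolarisation, inward rectifiers (Kir) pass current best near rest, and 2-pore-domain channels (K2P) carry leak current. Calcium- and sodium-activated channels tie excitability to ion entry, and auxiliary subunits alter the gating and delivery of the pore-forming ones. In the hippocampus these families differ in their place along axons and dendrites and between pyramidal cells, interneurons and glia.

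Values are on the log2 scale, after subtraction of the 75th percentile of each array, and a difference is the anti-CD4 mean minus the control mean. A positive value therefore lies above the 75th percentile of that array. Levels of different genes are not compared, because each comes from its own probe. The 8 arrays lay on 1 slide, with the anti-CD4 arrays in one row and the controls in the other. The group and the row on the slide cannot be told apart. Probes well above background made up 51.1% to 54.3% of each array, and no spot was saturated. Precision is limited by the number of arrays. Of the neuron markers, 5 of 5 were well above background on all arrays, with a median difference of -0.01. In bulk tissue, fewer cells of a type and less RNA per cell cannot be told apart.

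The array reads each channel through probes of 60 bases. Shown here are the 30 bases at the 5′ end of the probes for the 6 channels whose groups of arrays did not overlap, from the deposited scanner files, so that the stretch behind each value is known. Positions are those of the files on mm9, and exon or UTR annotation was not used here. The Kcnj4 probe lies at chr15:79314133-79314157 on the minus strand, Kcng1 at chr2:168087201-168087260 (minus), Kcnk13 at chr12:101300491-101300550 (plus), Kcnc2 at chr10:111902778-111902837 (plus), Kcnj6 at chr16:95053973-95054032 (minus) and Kcnj10 at chr1:174304062-174304121 (plus). For Kcnj4 the files place 25 of the 60 bases at that position.
Kcnj4: gcatgactgtggtctgtgctcttgattctc
Kcng1: ttcatcccagttcgggtgggtagggcaaca
Kcnk13: caacaaacattccagagtgtctctgggcct
Kcnc2: tctacatagaaatctaaccatttcttggtc
Kcnj6: gtgtcaccattgattattagccatgaaatt
Kcnj10: gaaacagaagaatctagggatgatttctct

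No potassium channel gene passed the adjusted threshold of 0.05 in limma, and 0 of the 23606 rows of the table did (0.0%). An unadjusted p under 0.05 was found for 16 of the 73 measured genes, 21.9%. Of these, 9 were above controls (12.3%, against 6.16% of all rows) and 7 were below (9.59%, against 6.83% of all rows). The smallest adjusted p of a channel gene was 0.247, and that of the whole table was 0.119. The median difference was 0.04 over the channel genes and 0.01 over all rows, with 41 genes above 0 and 32 below, or 49 and 24 when each array was centred on its median. With that centring, 12 genes were above and 2 below at an unadjusted p under 0.05, 16.4% and 2.74% of the measured genes, against 8.75% and 4.06% of all rows. Without anti-CD4 replicate 2, 9 genes had an unadjusted p under 0.05, 12.3% against 9.41% of all rows. Without anti-CD4 replicate 4 there were 10, 13.7% against 9.27%.

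In 6 of the 73 genes every anti-CD4 array lay on one side of every control array. Kcnj4 and Kcng1 were above, 2.74% of the measured genes against 3.83% of all rows. Kcnk13, Kcnc2, Kcnj6 and Kcnj10 were below, 5.48% against 4.36%. Both shares lie near those of the table. Centring on the median gave 7 genes above (Kcng1, Kcna5, Kcnk6, Kcnk12, Kcnh3, Kcnj9 and Kcnma1) and 0 below, against 6.1% and 2.2% of all rows, so of the 6 genes Kcng1 alone is in both sets. The number apart was 11 with the authors' deposited table, 15.1% against 10.2% of all rows. It was 10 with control replicate 1 left out, 13.7% against 11.4%, and 11 with control replicate 3 left out, 15.1% against 12.1%.

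**Figure D1:**
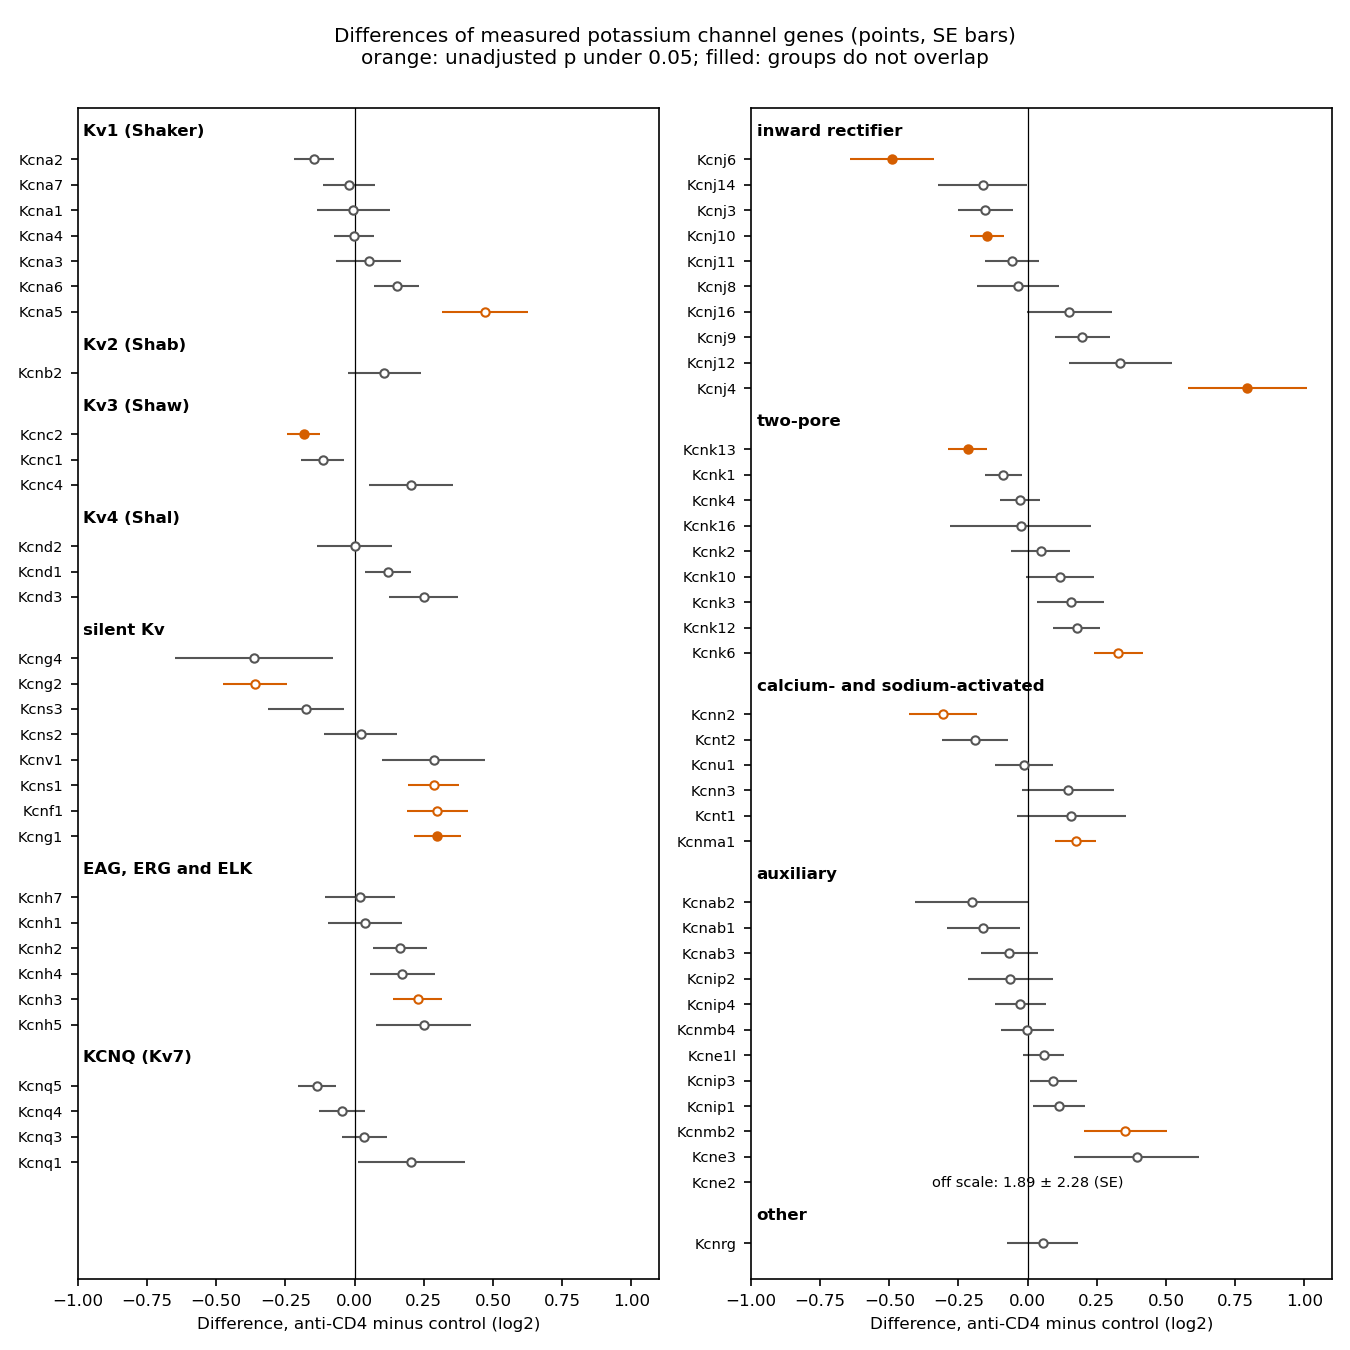
Difference between the anti-CD4 and the control arrays (log2, n = 4 per group) for 70 of the 73 measured potassium channel genes, by class. Points are differences and bars are standard errors from limma, orange marks an unadjusted p under 0.05 (15 genes), and filled points are the 6 genes whose groups do not overlap. Kcne2 is off the scale and is given in figures.

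**Figure D2:**
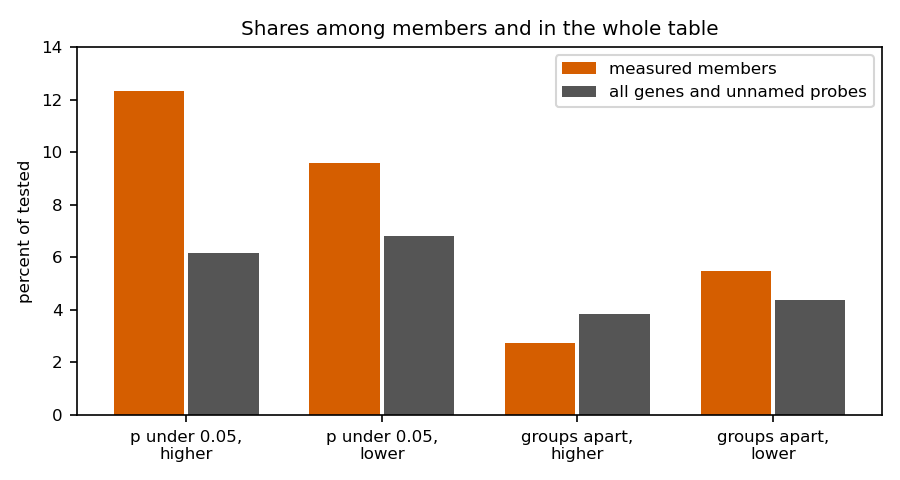
Share (percent) of the 73 measured channel genes and of all 23606 rows tested that had an unadjusted p under 0.05, or whose groups did not overlap, in each direction. The largest gap is on the higher side at an unadjusted p under 0.05, 12.3% against 6.16%, and the shares with separate groups lie near each other.

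Among the inward rectifiers, 10 of 14 genes were measured, 4 above and 6 below controls, with a median of -0.05, or 5 and 5 with normexp background correction or quantile normalization. Kcnj4, which encodes Kir2.3, a strongly rectifying channel of forebrain neurons, had the largest difference among the genes with an unadjusted p under 0.05. In the order of replicates 1 to 4, controls read 3.07, 3.68, 3.23 and 2.65 and anti-CD4 arrays 4.21, 3.68, 3.79 and 4.12. The groups touch: control replicate 2 and anti-CD4 replicate 2 agree to the second decimal. The difference was 0.79 ± 0.21 (SE, n = 4 per group), a 1.73-fold ratio (adjusted p = 0.247, limma). With each array centred on its median it was 0.83 and the groups overlapped. Kcnj12, of the same subfamily, differed by 0.34 ± 0.19 (adjusted p = 0.477, limma). Control replicate 2 read -0.83, and the remaining controls -0.14 to -0.02, and the difference was 0.15 with that array left out.

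The channels gated by G proteins (GIRK) slow firing when inhibitory transmitters act. Kcnj6, which encodes GIRK2, read -1.20, -1.02, -1.28 and -1.38 in controls and -1.51, -1.99, -1.39 and -1.96 in the anti-CD4 group. Anti-CD4 replicate 3 lies beside control replicate 4, and replicates 2 and 4 are the lowest of all arrays. The difference was -0.49 ± 0.15 (adjusted p = 0.269, limma), and -0.30 with the authors' deposited table. Kcnj3, which encodes the partner subunit GIRK1, differed by -0.15 ± 0.10 (adjusted p = 0.539), and the mean of its probes differed by -0.06. Kcnj9, which encodes GIRK3, differed by 0.20 ± 0.10 (adjusted p = 0.443), and by 0.12 without control replicate 2. Kcnj5 was not measured. Of the 3 measured GIRK genes, Kcnj3 and Kcnj6 were thus below controls and Kcnj9 above.

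The dentate gyrus holds granule cells, and their marker list was lowest on the same arrays as Kcnj6. Of its 7 measured markers 6 were below controls, with a median of -0.30, or 5 with a median of -0.07 with the authors' deposited table. Its mean was -0.97 to -0.67 in controls and -0.83, -1.38, -0.77 and -1.19 in anti-CD4 replicates 1 to 4, so the same replicates 2 and 4 were lowest. In replicates 1 and 3 the list mean lay within the control range, while Kcnj6 was below every control. Prox1, the transcription factor that defines these cells, differed by -0.52, while Calb1, their calcium-binding protein, was 0.43 above. With the mean of this list as a covariate, 7 channel genes had an unadjusted p under 0.05, 9.59% against 9.82% of all rows. These were Kcnj4, Kcns1, Kcnk6, Kcng1 and Kcnmb2 above, and Kcnc2 and Kcnj6 below, and the difference of Kcnj6 was then -0.28. Markers of CA2 and CA3 pyramidal cells were below controls in 4 of 4 measured genes, with a median of -0.20, and CA1 markers had a median of -0.15. Both list means were also lowest in anti-CD4 replicates 2 and 4. They read 1.40 and 1.56 for CA2 and CA3, and 2.32 and 2.34 for CA1. The part of these lists in the channel results was not tested.

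Kcnj10 encodes Kir4.1, the channel with which astrocytes and oligodendrocytes take up potassium. It read 4.54, 4.72, 4.64 and 4.59 in controls and 4.46, 4.47, 4.50 and 4.46 in the anti-CD4 group. The anti-CD4 arrays are close together and all lie below the lowest control, replicate 3 by a small margin. With each array centred on its median the groups overlapped. The difference was -0.15 ± 0.06 (adjusted p = 0.365, limma). Astrocyte markers were above controls in 3 of 6 genes, with a median of 0.01, and oligodendrocyte markers had a median of -0.15. Kcnj16, which encodes Kir5.1, the partner of Kir4.1, differed by 0.15 ± 0.15 (adjusted p = 0.695). The channels of metabolic state (KATP) showed small differences, -0.06 for Kcnj11, which encodes the neuronal pore Kir6.2, and -0.04 for Kcnj8, which encodes the pericyte pore Kir6.1. The standard errors were 0.10 and 0.15, so both differences lie within them. Pericyte and smooth muscle markers were above in 1 of 5 genes, with a median of -0.03, or in 3 when centred on the median.

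The 2-pore-domain channels were measured in 9 of 13 genes, 5 above and 4 below, with a median of 0.05, or 7 and 2 when centred on the median. Kcnk13 encodes THIK-1, a leak channel that in the brain is known from microglia. It read -0.01, 0.19, 0.11 and 0.06 in controls and -0.04, -0.22, -0.11 and -0.14 in the anti-CD4 group, with no overlap. The gap between the closest arrays of the groups, control replicate 1 and anti-CD4 replicate 1, is small against the spread within them. The difference was -0.22 ± 0.07 (adjusted p = 0.272, limma). Kcnk6, which encodes TWIK-2, a leak channel also described in macrophages, read -0.77, -0.75, -0.47 and -0.73 in controls and -0.31, -0.33, -0.49 and -0.27 in the anti-CD4 group. Control replicate 3 lies above anti-CD4 replicate 3, and the other arrays separate. Its difference was 0.33 ± 0.09 (adjusted p = 0.247), and 0.20 with the authors' deposited table. Microglia markers were above controls in 4 of 6 genes, with a median of 0.02, or in 2 with the authors' deposited table. Kcnk1 and Kcnk2, which encode the leak channels TWIK-1 and TREK-1, differed by -0.09 ± 0.07 and 0.05 ± 0.11, and neither had an unadjusted p under 0.05.

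**Figure D3:**
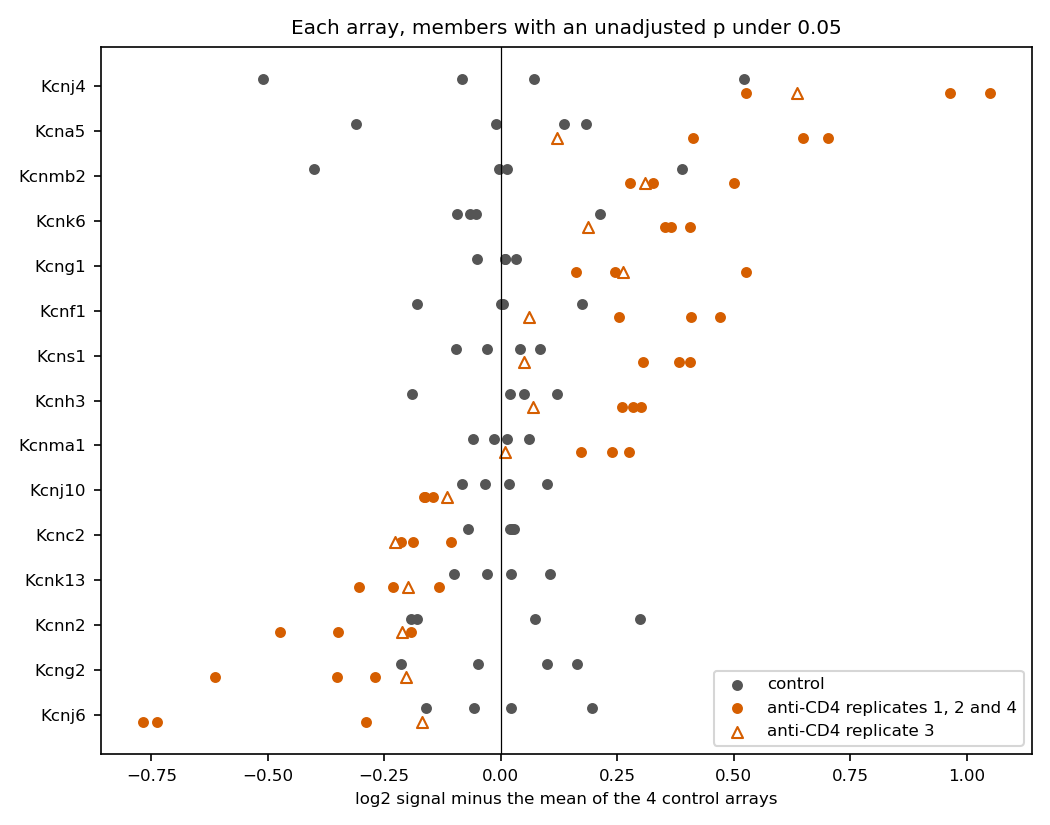
Log2 signal of each array minus the mean of the 4 control arrays, for 15 of the 16 channel genes with an unadjusted p under 0.05. Each point is 1 array, and the anti-CD4 points lie apart from the control points in 6 genes, and Kcnj4 has the widest spread among the controls.

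The Kv3 genes encode channels that let fast-spiking interneurons fire at high rates. Kcnc2 read 2.12, 2.21, 2.21 and 2.22 in controls and 1.97, 2.0, 1.96 and 2.08 in the anti-CD4 group. All controls lie above all anti-CD4 arrays. The difference was -0.18 ± 0.06 (adjusted p = 0.276, limma). Kcnc1 differed by -0.12 ± 0.08 (adjusted p = 0.550). The difference of Kcnc4, chosen after its value was known, was 0.20 ± 0.15 (adjusted p = 0.591). It was 0.07 without control replicate 2, 0.31 without anti-CD4 replicate 3 and 0.05 adjusted for the dentate list. Interneuron markers were above controls in 2 of 6 genes, with a median of -0.04.

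Electrically silent Kv subunits form no channel alone and change the properties of Kv2 channels when they join them. Of 10 genes 8 were measured, 5 above and 3 below, with a median of 0.15. Of these 8 genes, 4 had an unadjusted p under 0.05, 3 above and 1 below, against 6.16% and 6.83% of all rows. Kcng1 read 0.63, 0.63, 0.57 and 0.66 in controls and 0.87, 0.78, 0.89 and 1.15 in the anti-CD4 group. The controls lie within a narrow band and each anti-CD4 array is above it, replicate 4 the farthest. The difference was 0.30 ± 0.09 (adjusted p = 0.253, limma), and 0.20 with the authors' deposited table. Chosen after their values were seen, Kcnf1, Kcns1 and Kcng2 had differences of 0.30 ± 0.11, 0.29 ± 0.09 and -0.36 ± 0.12 (adjusted p = 0.325, 0.272 and 0.272). Kcnb2, which encodes a Kv2 pore, differed by 0.11 ± 0.13 (adjusted p = 0.756).

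The Kv1 genes, whose channels gather along axons and near nodes of Ranvier, were measured in 7 of 8 cases, 3 above and 4 below, with a median of -0.0025, or 6 and 1 when centred on the median. Kcna1, which encodes the axonal channel Kv1.1, read 4.07, 4.65, 4.57 and 4.48 in controls and 4.56, 4.26, 4.50 and 4.43 in the anti-CD4 group. The groups overlap almost completely, and the difference was -0.0051 ± 0.13 (adjusted p = 0.992, limma). Kcna5, which encodes Kv1.5, was dim: its probe was well above background on 2 control arrays and on 4 anti-CD4 arrays. It read -3.80, -4.25, -3.75 and -3.95 in controls and -3.24, -3.29, -3.82 and -3.53 in the anti-CD4 group. The difference of 0.47 ± 0.15 (adjusted p = 0.279) was 0.19 with normexp background correction, 0.10 with the authors' deposited table and 0.81 as the mean of both its probes, of which the other was well above background on 4 of the 8 arrays.

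The Kv4 genes carry the A-type current that limits the spread of action potentials into dendrites, and 3 of 3 were measured, with a median of 0.12; Kcnd2 was below controls with quantile normalization. Kcnd2, which encodes the dendritic channel Kv4.2, read 3.35, 3.94, 3.59 and 3.72 in controls and 3.80, 3.43, 3.77 and 3.60 in the anti-CD4 group, and the ranges coincide. The difference was 0.0002 ± 0.14 (adjusted p = 1.0, limma). Kcnd3, which encodes Kv4.3, differed by 0.25 ± 0.13 (adjusted p = 0.441), and by 0.14 without control replicate 1. Of the Kv4 partners, only the Kcnip genes are given here. Kcnip3 and Kcnip1 differed by 0.09 ± 0.09 and 0.11 ± 0.09, and Kcnip2 and Kcnip4 by -0.06 ± 0.15 and -0.03 ± 0.09.

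The KCNQ genes encode Kv7 channels, which carry the M-current that holds neurons near rest. Kcnq3, which encodes a subunit of that current, differed by 0.04 ± 0.08 (adjusted p = 0.876). Kcnq5, of the same family, had a difference of -0.14 ± 0.07 (adjusted p = 0.447, limma).

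The EAG, ERG and ELK genes encode a further voltage-gated family, and 6 of 8 were measured. All 6 measured genes were above controls, by 0.02 to 0.25, with a median of 0.17, but Kcnh1 was below with normexp, and Kcnh1 and Kcnh7 with the authors' deposited table. Of the 6, 1 had an unadjusted p under 0.05 (16.7%, against 13.0% of all rows). That gene was Kcnh3, which encodes the forebrain channel Kv12.2. It read 4.41, 4.65, 4.72 and 4.62 in controls and 4.89, 4.86, 4.67 and 4.90 in the anti-CD4 group, replicate 3 lying within the control range. The difference was 0.23 ± 0.09 (adjusted p = 0.342, limma).

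The calcium- and sodium-activated genes were measured in 6 of 8 cases, 3 above and 3 below, or 4 and 2 when centred on the median. Kcnma1, which encodes the large-conductance BK channel, read 3.47, 3.54, 3.59 and 3.52 in controls and 3.81, 3.77, 3.54 and 3.70 in the anti-CD4 group. Again anti-CD4 replicate 3 lies among the controls and the other anti-CD4 arrays above them. The difference was 0.17 ± 0.07 (adjusted p = 0.374, limma), and 0.09 as the mean of its 3 tested probes. Kcnn2, which encodes the small-conductance SK2 channel, differed by -0.31 ± 0.12 (adjusted p = 0.353), and by -0.16 with the dentate list as a covariate. Kcnt1, a sodium-activated channel gene, differed by 0.16 ± 0.20 (adjusted p = 0.761), a value within its standard error. Without anti-CD4 replicate 3 it was 0.33, without anti-CD4 replicate 2 it was 0.02, and without control replicate 2 it was 0.05.

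Of 16 auxiliary subunit genes 12 were measured, 6 above and 6 below, with a median of 0.03, or 8 and 4 when centred on the median. Kcnmb2, a BK beta subunit gene, read -3.16, -2.77, -2.37 and -2.75 in controls and -2.26, -2.49, -2.45 and -2.44 in the anti-CD4 group. Control replicate 3 lies inside the anti-CD4 range. The difference was 0.35 ± 0.15 (adjusted p = 0.373, limma), 0.13 with normexp, 0.06 with the authors' deposited table and 0.22 without control replicate 1. Kcnab1, which encodes a Kv1 beta subunit, differed by -0.16 ± 0.13 (adjusted p = 0.622), by -0.05 without control replicate 2 and by -0.09 without anti-CD4 replicate 2. Kcnrg, a regulator of channel assembly outside these classes, differed by 0.05 ± 0.13 (adjusted p = 0.879).

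Kcne2 had the largest difference of all measured channel genes and the widest spread. It encodes a small subunit that joins Kcnq1 channels in the choroid plexus, the tissue that makes cerebrospinal fluid. It read 1.94, -4.37, -6.09 and 2.20 in controls and -4.59, 1.31, 2.97 and 1.57 in the anti-CD4 group. Each group holds both high and low arrays, 2 of each in controls and 3 high and 1 low in the anti-CD4 group. Its probe was well above background only on the high arrays, 2 control and 3 anti-CD4 arrays. The difference was 1.89 ± 2.28 (adjusted p = 0.749, limma), less than its standard error. Choroid plexus markers were above controls in 8 of 8 genes, with a median of 1.22, or 0.80 with the authors' deposited table. Their mean read 2.93, -1.58, -2.72 and 2.89 in controls and -1.76, 2.11, 3.398 and 2.22 in the anti-CD4 group, low on the same 3 arrays as Kcne2. With the signal of the choroid plexus gene Ttr as a covariate, the difference of Kcne2 was 0.33, and it was 1.04 with the authors' deposited table. With control replicate 3 left out it was 0.39, and with anti-CD4 replicate 1 left out 3.53. Leaving out control replicates 1, 2 and 4 in turn gave 3.06, 0.96 and 3.15, and leaving out anti-CD4 replicate 3 gave 1.01.

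**Figure D4:**
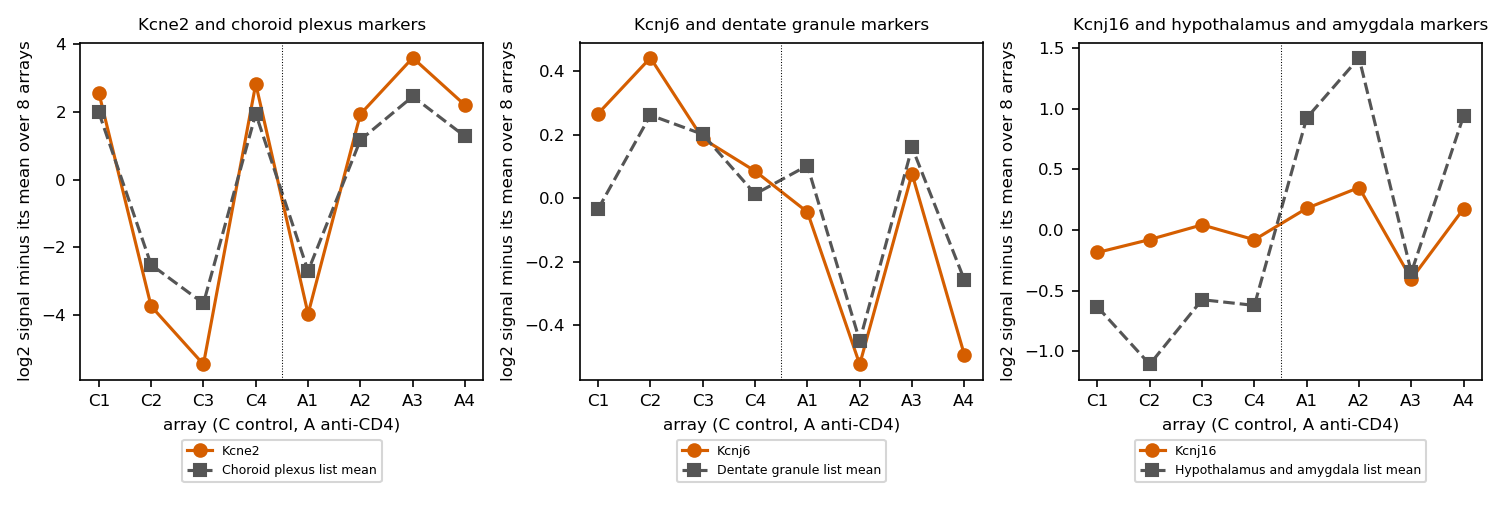
Log2 signal minus its mean over the 8 arrays, for 3 channel genes (orange) and for the mean of a marker list (grey, dashed) on each array. C1 to C4 are control and A1 to A4 anti-CD4 replicates, and the lines only join the points. Kcne2 and the choroid plexus mean are low on C2, C3 and A1, and Kcnj6 and the dentate mean are lowest on A2 and A4. A3 is the lowest array for Kcnj16, while on A3 the hypothalamus and amygdala mean lies above every control.

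Many channel genes had separate groups only without anti-CD4 replicate 3. Without that array, 23 of the 73 genes (31.5%) had separate groups, against 16.6% of all rows. Of the 23 genes, 18 were above and 5 below, while of all rows 9.55% were above and 7.07% below. At an unadjusted p under 0.05 there were 23 genes, 17 above and 6 below (23.3% and 8.22%), against 8.41% and 7.36% of all rows. Of the 73 genes 0 passed the adjusted threshold, while 11 rows of the table did (limma). Of the 17 genes that this adds to the 6, 16 were above controls and 1, Kcng2, was below. A gene is added only if replicate 3 had kept its groups from separating. In the 16 higher ones it therefore had to lie no higher than the highest control, which the choice of genes fixes in advance. In 11 of the 16 higher ones, replicate 3 lay within the control range. In the other 5, Kcnb2, Kcnip3, Kcnj16, Kcnk10 and Kcnn3, it was the lowest of the 8 arrays. These genes were chosen after their values were seen. Kcnj16 read 1.72 to 1.95 in controls, 2.08 to 2.25 in anti-CD4 replicates 1, 2 and 4, and 1.499 in replicate 3. Kcnn3, which encodes the SK3 channel, read -2.23 to -1.95 in controls, -1.90 to -1.64 in those replicates and -2.47 in replicate 3. Their differences without that array were 0.31 and 0.32.

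A list of genes of the hypothalamus and amygdala, regions that neighbour the hippocampus, also read lower in anti-CD4 replicate 3 than in the rest of its group. The list was chosen with earlier results of these data known and is no independent evidence. Of its 7 measured genes, 4 were well above background on all 8 arrays. Its 7 measured genes were all above controls, with a median of 1.21. That median is the difference of Esr1, which was not well above background on any control array; with Esr1 at the lower bound its arrays allow, the median was 1.15. It was 0.79 with normexp and 0.76 with the authors' deposited table. The list's mean was -1.13 to -0.60 in controls, 0.90, 1.40 and 0.92 in anti-CD4 replicates 1, 2 and 4, and -0.37 in replicate 3. For this list replicate 3 thus lay above every control, while for Kcnj16 it was the lowest of the 8 arrays. The thalamus and habenula list was above in 6 of 6 genes (median 0.21), the striatum list in 3 of 4 (median 0.25) and the endothelial list in 4 of 5 (median 0.17). Their part in the channel results was not tested.

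Of the channel genes, 22 had several tested probes. In Kcna2 and Kcnd3 the probes had opposite signs and differed by more than 0.3. For Kcna2, which encodes the axonal channel Kv1.2, the brighter probe at chr3:106909700-106909759 (plus strand, mm9) differed by -0.15. The dimmer one at chr3:106915982-106916041, with 6222 bases between them, differed by 0.24, and the mean of both by 0.05. For Kcnd3, the brighter probe at chr3:105476854-105476913 (plus strand) differed by 0.25. The dimmer one at chr3:105471938-105471997, designed on another transcript, differed by -0.07, with 4856 bases between them. For Kcnd3 the dimmer probe averaged -3.33 in controls and -3.40 with anti-CD4, and the brighter one 3.93 and 4.18. The -0.07 is smaller than the SD of the dimmer probe within either group, 0.22 and 0.15. For Kcna2 the dimmer probe averaged -2.70 and -2.46, and the brighter one 0.74 and 0.59. No single direction can be given for either gene. The first 30 bases of these probes are shown to tell them apart.
Kcna2 brighter: actcacatgactgaactttggggattaatc
Kcna2 dimmer: ttacttagaagtgggtgggagggattcctc
Kcnd3 brighter: tactgagtcctgtgccactgctgtacctga
Kcnd3 dimmer: taatttgaaagcagacgatggactgagacc

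**Figure D5:**
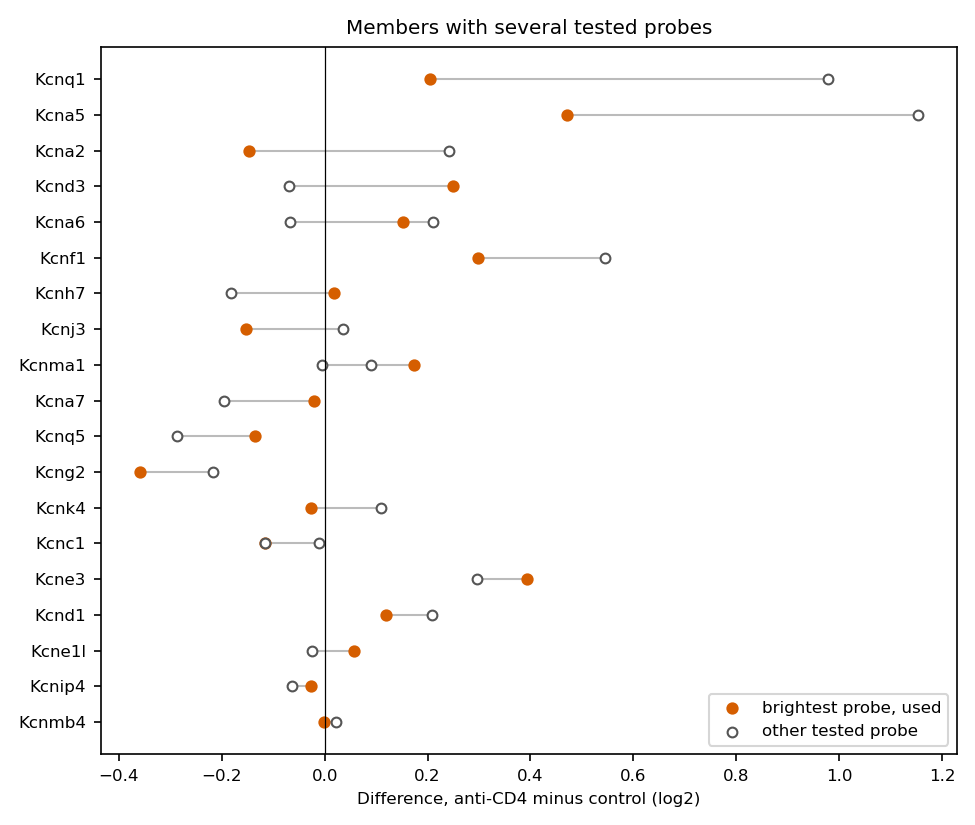
Difference between the anti-CD4 and the control arrays (log2) for each tested probe of 19 of the 22 channel genes with several. Orange is the brightest probe, used for the gene, and open points are the other probes; Kcna2 and Kcnd3 have probes on both sides of 0 that lie more than 0.3 apart, and the second probes of Kcna5 and Kcnq1 were well above background on 4 of the 8 arrays each.

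In Kcnf1 both probes were above controls, by 0.30 and 0.55. In Kcna5 and Kcnq1 the brightest probes differed by 0.47 and 0.20, and each second probe was well above background on 4 of the 8 arrays. That of Kcna5 differed by 1.15, and that of Kcnq1 stood above background on anti-CD4 arrays only. Some measured channel genes lie side by side in the genome. On chromosome 1, Kcnj9 differed by 0.20 and Kcnj10 by -0.15. On chromosome 3, Kcna3 differed by 0.05 and Kcna2 by -0.15. On chromosome 6, Kcna5 differed by 0.47, its neighbour Kcna1 by -0.0051 and the next gene, Kcna6, by 0.15.

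Proteins that anchor, traffic or regulate potassium channels were measured in 28 of 30 listed genes, 13 above and 15 below controls, with a median of -0.03, or 15 and 13 with normexp or the authors' deposited table. Their differences ranged from -0.44 to 0.73. Of these 28 genes, 3 were above and 3 below at an unadjusted p under 0.05, against 6.16% and 6.83% of all rows. Of the 28, 0 passed the adjusted threshold in limma. Cntn2, an adhesion protein that helps gather Kv1 channels beside nodes of Ranvier, read -2.65, -2.49, -2.59 and -2.45 in controls and -2.75, -3.01, -3.14 and -3.03 in the anti-CD4 group. The groups do not overlap, and the difference was -0.44 ± 0.09 (adjusted p = 0.204), but -0.13 with normexp and -0.10 with the authors' deposited table. Ank3, which encodes ankyrin-G, the anchor of KCNQ channels at the axon's initial segment, read 2.77, 2.83, 2.83 and 2.69 in controls and 2.61, 2.45, 2.40 and 2.24 in the anti-CD4 group. All controls lie above all anti-CD4 arrays, with a difference of -0.35 ± 0.09 (adjusted p = 0.240). Rgs7bp, a membrane anchor of regulators of G protein signalling that speed the closing of GIRK channels, differed by -0.37 ± 0.11 (adjusted p = 0.267), and its groups did not overlap either. Lingo1, a membrane protein that binds BK channels, is 1 of the 3 partners that were above controls in that count. It was not well above background on any control array and was on all 4 anti-CD4 arrays. It thus passed the filter only through the group where it was higher. Its p-value and its place in the count rest on that selection and are no support for a difference. Its measured means were -4.63 in controls and -3.96 with anti-CD4, a difference of 0.67 (adjusted p = 0.267, limma). With the dim controls set no lower than the lowest signal well above background on each array, the ratio was at least 1.26-fold. That bound was not tested and rests on the same selection.

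The 19 channel genes not measured were well above background on at most 3 arrays by any probe. They include 4 inward rectifiers, Kcnj1, Kcnj2, Kcnj5 and Kcnj15, and 4 2-pore-domain channels, Kcnk5, Kcnk7, Kcnk15 and Kcnk18. The others were Kcna10, Kcng3, Kcnv2, Kcnh6, Kcnh8, Kcnn1, Kcnn4, Kcne1, Kcne4, Kcnmb1 and Kcnmb3. Nothing is said here of their direction.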

How the data were processed

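Spot intensity was deposited as scanner output of Feature Extraction 10.7.3.1 (design 028005, mm9, per the file headers), background-subtracted and not normalized between arrays. The authors' deposited table holds log2 values with column medians of 7.83. For it, limma is the tool named in the submitters' processing notes. Its scale was checked against the scanner signals by rank, and how it was normalized stays unknown.

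Here, control spots were left out, as were outlier-flagged spots unless all spots of a probe were flagged, and spots of a probe were averaged. Values are log2 processed signals minus each array's 75th percentile, for 29403 of 55681 probes. Names came from the files and a GRCm38.p6 symbol table (27509 probes by accession, 3549 by symbol, 404 by synonym, 1514 kept), and the brightest probe stood for a gene. Groups, taken from sample titles, were compared with limma 3.58.1 in R 4.3.3 (lmFit, eBayes, two-sided, Benjamini-Hochberg over 23606 rows, threshold 0.05). On simulated arrays, 82.8% of genes changed by 1 and 40.2% of those changed by 0.5 (log2) were recovered. The simulated scatter was drawn independently for each gene, without the variation that genes share on these arrays. Recovery in the real arrays can therefore differ. Named genes were those with separate groups, the smallest p of each class, disagreeing probes, a fixed list of 20 well-known channels and the 4 partners of smallest p. Some genes that this rule takes are not reported here. The members and lists were chosen with earlier results of these data known. Alternatives covered normalization, background, dim probes, probe choice, replicate block, array weights, empirical Bayes options, leaving out each array, the authors' table, and Ttr or dentate covariates.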

Additional observations from a re-analysis of the deposited data

Results flagged for a closer look

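A gap test, which chance passes in about 1 in 20 groups, set 1 array apart in 7 of the 140 groups of 4 arrays (5.0%). Kcnb2 read -1.554 and Kcnc4 2.023 in anti-CD4 replicate 3, both below the rest of their group. Kcnc1 read 2.264 in anti-CD4 replicate 4, above its group. In control replicate 2, Kcnj12 read -0.8292 and Kcnj9 1.313, below the other controls. In control replicate 1, Kcnc2 read 2.117, again below the others. Kcnk6 read -0.4655 in control replicate 3, above the other controls.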

How the results depend on the processing

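No channel gene passed an adjusted p under 0.05 in limma in any of the 21 settings tried, nor under 0.1. At an unadjusted p under 0.05 there were 16 genes, 7 with the dentate covariate (9.59% against 9.82% of all rows) and 9 to 23 with 1 array left out (9.27% to 15.8% of all rows). The groups were apart in 6 genes, in 11 with the authors' table and in 6 to 23 with 1 array left out (up to 16.6% of all rows). Whether equal replicate numbers pair the samples is not known. Deviations from the group mean correlated at -0.45, -0.29, -0.31 and 0.31 between same-numbered arrays, and at -0.42 to 0.45 between the others. Such deviations balance out within a group, so these values cannot decide on pairing. With the replicate block 8 genes (11.0%, against 9.36% of all rows) had an unadjusted p under 0.05.

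Small differences turned sign; the cause was not tested. With the dentate covariate Kcna1 differed by 0.1325, Kcnt1 by -0.09771, Kcnk2 by -0.07186, Kcnb2 by -0.003361 and Kcnn3 by -0.0289. Kcna1 differed by 0.02861 centred on the median, 0.006346 with normexp and 0.04758 with the Ttr covariate. Kcna2 differed by 0.04784 as the mean of its probes, Kcnd2 by -0.02002 and Kcnj8 by 0.00169 with quantile normalization, and by -0.02282 and 0.08619 with array weights. With 1 array left out, Kcnq3 ranged from -0.01249 to 0.07355, Kcna1 from -0.1296 to 0.06447, Kcnd2 from -0.09957 to 0.0965, Kcnj11 from -0.1259 to 0.002641, Kcnj8 from -0.1084 to 0.12, Kcnrg from -0.0287 to 0.1331 and Kcnk2 from -0.01482 to 0.1162. Signal close to background limits Kcna5, Kcne2, Kcne3, Kcng4, Kcnk16 and Kcnq1, each well above background on only some arrays.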
